A study of Drosophila melanogaster with 28 samples.

Results

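Ribosome footprints of wild-type (WT) Drosophila melanogaster testis were compared with those of WT body. The comparison used 4 of the 28 libraries of a study of Mettl1, a tRNA methyltransferase subunit: 2 of testis and 2 of body, taken by the tissue, genotype and assay in their labels. The testis libraries belong to the later of 2 testis sets, called set 2 here. The earlier one, set 1, has 2 WT footprint libraries of its own and served as an alternative. No knockout library was used. The WT strain is labelled y1 w1118. Each testis sample pooled 600 pairs of testes from males aged 2 to 3 days, per the labels. Dissection was done in 100 µg/ml cycloheximide, which holds ribosomes in place on mRNA. This description covers testes. The age of the body flies, how the body was dissected and whether it still held testes or head are not given in the sources used here. Nothing says that replicates came from separate animals, so each p-value measures the spread between these samples, which may be technical.

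Ribosome profiling sequences the short mRNA stretches that a translating ribosome shields from nuclease, so the count at a gene reflects both how much mRNA there is and how densely ribosomes sit on it. The fly testis is filled mostly with germ cells on their way to sperm and is known for a large set of genes used in few or no other tissues. Spermatocytes store many mRNAs that are translated only later, in spermatids. The body holds muscle, fat body, gut, cuticle and nervous tissue. In bulk samples such as these, fewer cells of a type and less RNA per cell cannot be told apart.

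The files list counts by transcript identifier. Transcripts listed close together with near-identical counts were joined, which turned 34703 listed transcripts into 15244 loci, 7113 of them with several transcripts. Footprint totals over the loci were 10229696 and 5216883 in testis and 2731622 and 7339840 in body. At the depth of the smallest library, 10690 and 10672 loci reached 10 counts in testis, against 10079 and 10518 in body. The files do not pair identifiers with gene names. Through transcript synonyms in a reference gene table (FlyBase Release 6, dm6), 43 transcripts in 43 loci could be given gene symbols. All 43 were kept, whatever their values. None of 300 marker genes in 16 lists (germ cells, sperm parts, muscle, fat body, gut, neurons and others) could be paired, so the tissue labels were not checked against markers. No sequences are printed, because none were among the sources used here.

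Most loci differed between the tissues, and by amounts far beyond the replicate spread. Of 13017 loci tested, 10740 (82.5%) passed an adjusted p of 0.05 in the quasi-likelihood test of edgeR, adjusted by the Benjamini-Hochberg method. Of all loci tested, 5312 (40.8%) were higher in testis and 5428 (41.7%) higher in body. At least 2-fold apart were 8655 loci (66.5%), 4315 of them higher in testis and 4340 in body. The levels of the groups did not overlap at 11848 loci (91%). On the log2 scale the ratio of testis replicate 1 to testis replicate 2 had an SD of 0.32 over the 8921 loci with at least 10 counts in each library, and that of the body replicates 0.35. The ratio of the tissue means over the same loci had an SD of 2.21. A 2-fold difference separated the testis replicates at 1.22% of these loci, the body replicates at 1.15% and the tissues at 55.9%. Levels are given as CPM, the counts at a locus relative to the library's total and scaled by TMM, which assumes that most loci do not differ. Scaling by library size alone raised the median log2 fold change by 0.35 and put 56.9% of calls higher in testis, against 49.5% with TMM. Upper-quartile scaling moved the median by -0.18 and put 46.0% of calls there.

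The ranking of loci was nearly the same within a tissue and very different between tissues. Across 8921 loci, which are not independent and share the libraries' depth, Spearman's rho was 0.988 between the testis replicates and 0.978 between the body replicates. Between a testis and a body library it lay between 0.339 and 0.370. The lists of the 100 loci with most footprints in each tissue shared 10 loci, 10% of each list. The lists of 1000 shared 316, or 31.6% of each. Of the 100 leading loci of testis, 86 were called higher in testis, 5 higher in body and 9 were not called. Of the 100 leading loci of body, 95 were called higher in body, 5 were not called and 0 were higher in testis. These loci were ranked on the tested libraries, so the counts describe the lists and test nothing.

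The differences had another shape on each side. On the body side the number of loci per step of fold change fell with the size of the difference. On the testis side it fell, then rose again to a second peak. In steps of 0.5 on the log2 scale, 229 loci had a fold change (testis over body) of 2.5 to 3 and 223 one of 3 to 3.5. There were then 335 loci at 3.5 to 4, 636 at 4 to 4.5, 671 at 4.5 to 5 and 302 at 5 to 5.5. In the mirrored ranges on the body side, the steps from 2.5 to 5.5 held 415, 367, 323, 253, 249 and 207 loci, each fewer than the step before. The peak was also seen among loci well counted in testis: of the 4712 loci at 32 CPM or more there, 57 lay between 2.75 and 3 and 304 between 4.5 and 4.75. That cut is on testis alone, so body counts at these loci could be low, and the body side was not cut likewise.

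The range of 3.5 to 5.5, chosen after this shape was seen, held 1944 loci, 14.9% of those tested, against 1032 in the mirrored range. Since the range was set on the fold change, it also fixes the ratio of body to testis levels within it, and the next values only describe where in the range the loci lay. Over the 1763 of these loci with counts in both body libraries, the median level in body replicate 1 was 3.93% of the testis mean (quartiles 2.92% and 5.35%). In body replicate 2 it was 4.60% (3.56% and 5.89%). The median log2 fold change was 4.55 for the 399 loci of the range at 32 to 64 CPM in testis and 4.46 for the 283 loci at 256 CPM or more. Together the 1944 loci held 36.3% and 37.1% of testis footprints and 1.14% and 1.59% of body footprints. In the set 1 testis footprints, which had no part in choosing them, they held 35.0% and 32.9%. Whether RNA or cells of the testis were present in the body samples was not tested.

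**Figure D1:**
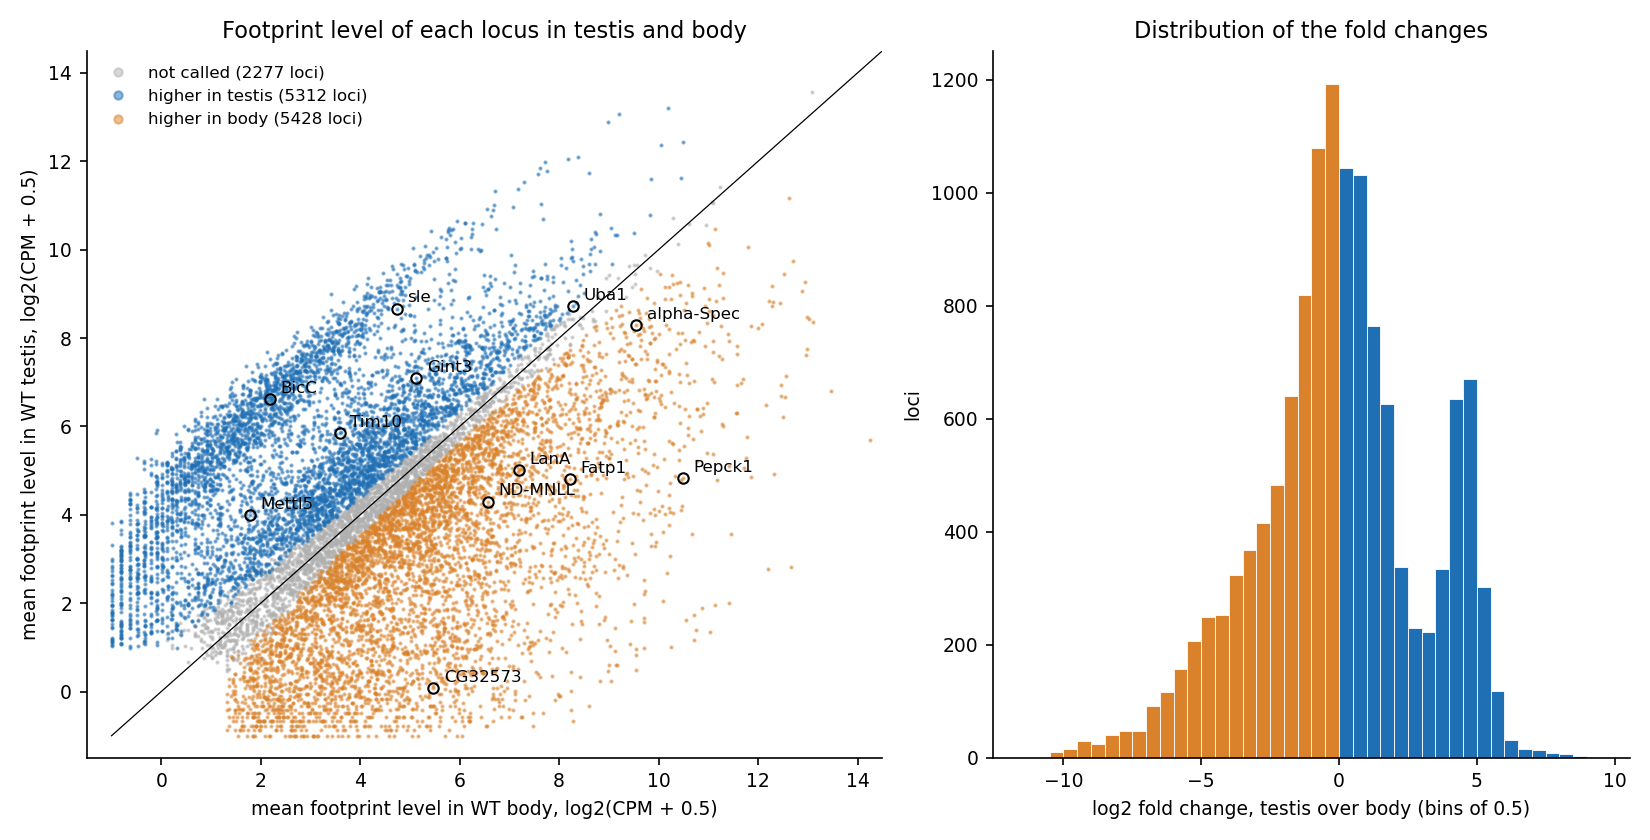
Left, mean footprint level of each of 13017 loci in WT body (x axis) and WT testis (y axis), both as log2(CPM + 0.5), coloured by call, with the line of equal levels and some loci of known symbol circled. Right, number of loci by log2 fold change in steps of 0.5, with blue for higher and orange for lower values in testis. The body side has no second peak, whereas the testis side has a second peak of 636 loci at 4 to 4.5 and 671 at 4.5 to 5, seen on the left as a band parallel to the line.

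Loci that differed strongly took up much of each tissue's translation. Loci called and at least 2-fold higher in testis held 61.6% and 62.9% of testis footprints, against 6.25% and 7.03% of body footprints. Loci at least 2-fold higher in body held 74.4% and 72.2% of body footprints, against 11.5% and 10.9% of testis footprints. Loci called and 4- to 32-fold higher in testis held 43.4% and 44.2% of testis footprints, against 2.21% and 2.82% of body footprints. Loci 4- to 32-fold higher in body held 37.2% and 36.3% of body footprints, against 5.26% and 5.01% of testis footprints. At least 32-fold apart were 1296 loci (9.96%), with 500 higher in testis and 796 in body. Most of the second peak on the testis side lies below this cut. The 500 testis loci held 3.51% and 3.88% of testis footprints, and 0.0595% and 0.0812% of those of body. The 796 body loci held 25.2% and 23.3% of body footprints, and 0.465% and 0.364% of those of testis. The libraries overlapped in none of these shares. They come from the loci's own fold changes and are a description. The exact 95% intervals of the shares at 2-fold or more and at 32-fold or more were at most 0.242 percentage points wide. They cover counting error only. In the set 1 testis libraries the 500 testis loci held 2.32% and 2.19% of footprints, and the 796 body loci 0.734% and 1.02%.

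**Figure D2:**
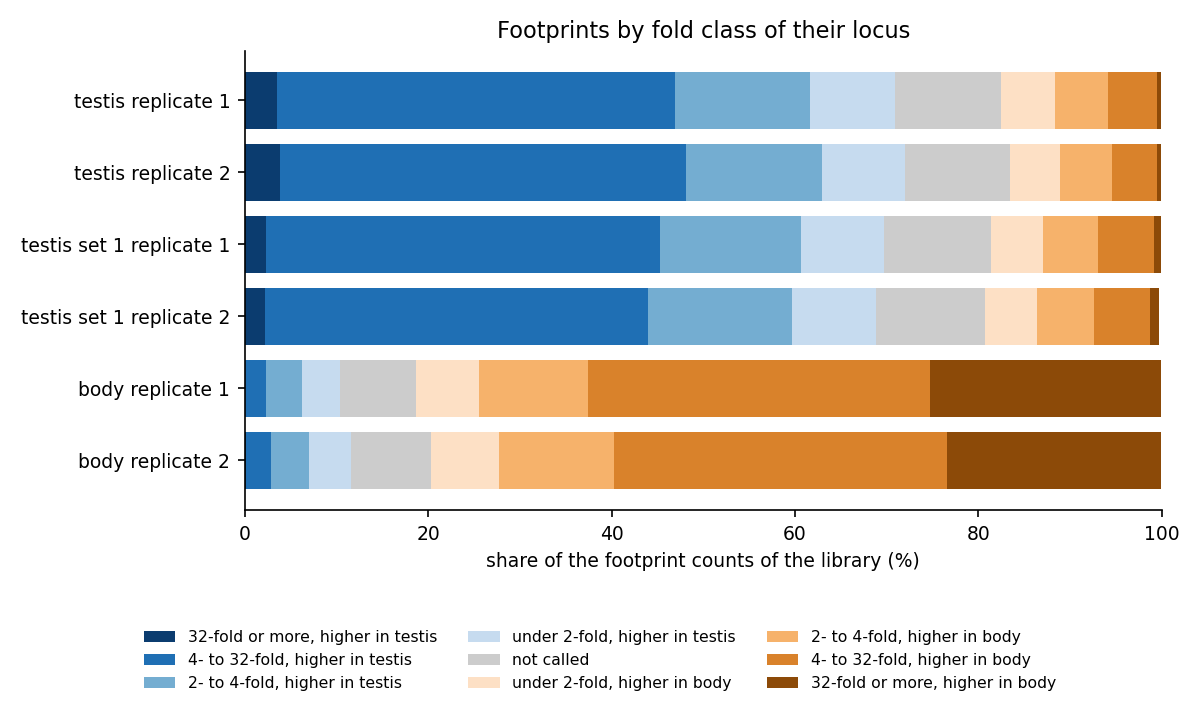
Share of each WT footprint library (x axis, percent of its counts) that lies in loci of each fold class and direction, with 1 bar per library. The body bars end in a wide dark segment of loci at least 32-fold higher in body (25.2% and 23.3%), whereas the matching testis segment is narrow (3.51% and 3.88%). In each tissue the widest segment is that of loci 4- to 32-fold higher in it, at 43.4% and 44.2% in testis and 37.2% and 36.3% in body. The set 1 testis libraries resemble those of set 2.

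Body footprints were gathered on fewer loci. The 100 loci with most footprints held 22.4% ± 1.45 (SD, n = 2) of a testis library and 31.7% ± 2.90 (n = 2) of a body library. For the leading 1000 loci the shares were 57.9% ± 1.28 and 70.1% ± 2.79. It took 718 and 648 loci to reach 50% of testis footprints, against 276 and 353 in body. The groups did not overlap in these measures, and each two-sided exact permutation p was 0.333, the smallest that 2 against 2 libraries allow. The leading 10 loci held 7.42% ± 0.988 in testis and 8.36% ± 0.890 in body, where the groups overlapped (exact permutation p = 0.667).

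Detection in only 1 tissue was rare. Of 11557 loci with at least 10 counts in both testis libraries, 44 had 0 counts in both body libraries, and 413 had at most 3 in each. Of 10070 loci with at least 10 counts in both body libraries, 30 had 0 counts in testis and 257 had at most 3 in each. Only 3 loci had 100 or more body counts per library and 0 in testis, and no locus showed the reverse. The libraries were not brought to equal depth here, and a count of 0 depends on depth. It also depends on whether testis material was in the body samples, which was not tested.

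The loci without a symbol that are given by identifier had the largest fold changes each way under the rule for naming. What they encode is not given here. FBtr0332229 had 429 and 587 CPM in testis and 9.41 and 10.9 CPM in body, a fitted fold of 48.9 (log2 5.61, SE 0.25, edgeR adjusted p = 1.42e-12). FBtr0081676 had 270.0 and 294 CPM in testis and 5.82 and 6.38 CPM in body, a fitted fold of 45.2 (log2 5.50, SE 0.22, edgeR adjusted p = 5.96e-13). Both sets of testis values lay far above both body values, and both loci were lower in set 1 testis, at 172 and 198 CPM and at 148 and 134 CPM. On the other side, FBtr0080464 had 1.38 and 2.67 CPM in testis and 2474 and 1728 CPM in body (log2 -10.11, SE 0.38, edgeR adjusted p = 4.47e-13). Its set 1 testis values were 0 and 42.7 CPM, so 1 of those libraries stood well above the other testis libraries. FBtr0076599 had 0.950 and 2.51 CPM in testis and 1670 and 1668 CPM in body (log2 -10.06, SE 0.38, edgeR adjusted p = 3.90e-13). The fitted folds of body over testis from edgeR were 1104 and 1069. They rest on testis counts of 16 and 16 for FBtr0080464 and 11 and 15 for FBtr0076599, near the rule's minimum of 10. The rule also required groups that do not overlap, so the separation at the loci named by it tests nothing. Without testis replicate 1 the log2 fold change of FBtr0076599 was -9.35, and without testis replicate 2 it was -10.72.

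Of the 43 loci with symbols 33 (76.7%, against 82.5% of all loci) were called, 14 higher in testis and 19 in body, and 25 of the 33 were at least 2-fold apart. At 39 of the 43, all 33 called loci among them, the groups did not overlap, as at 91% of all loci. Their median log2 fold change was -0.18, against -0.04 over all loci. Of the 43 loci, 28 name several genes, because the transcript carries a main and an upstream reading frame. Figures label such a locus by the frame listed first, but the text also uses others, such as the upstream frames Tfb5, Polr3K and Dpm2. Which frame the footprints lie in is not known. Values given under 1 gene's name may therefore belong to another frame of its locus. The number deposited with each transcript, described below as its length number, was 77 at the Mvk locus, 81 at the anox locus and 99 at the Tcs1 locus. Its median was 416 over all loci tested. Which frame it refers to is not stated.

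The largest testis excess among the 43 loci was at BicC and sle. BicC, a KH-domain RNA-binding protein that controls translation in the female germline (2L:16042047-16048757, which also carries the frame CG45084), had 84.8 and 111 CPM in testis. In body it had 3.14 and 4.93 CPM (log2 4.45, SE 0.24, edgeR adjusted p = 1.01e-11). The gene sle, for a nucleolar protein (3R:10333115-10338265), had 450 and 360 CPM in testis and 22.0 and 30.2 CPM in body (log2 3.91, SE 0.22, edgeR adjusted p = 1.59e-11). For both genes each testis value was over 10 times each body value, and both lie in the second peak of the fold changes. Mettl5, an rRNA adenosine methyltransferase, had 13.1 and 17.7 CPM in testis and 1.79 and 4.06 CPM in body (log2 2.13, SE 0.31, edgeR adjusted p = 5.60e-06). Its groups did not overlap. Without body replicate 2 the log2 fold change was 3.12, and with set 1 testis in place of set 2 it was 0.82 and not called (edgeR adjusted p = 0.121).

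The loci that carry Tfb5, Rad1 and Polr3K, of genome maintenance and transcription, had few counts, and Tfb5 and Polr3K are upstream frames there. The locus of CG31917 and Tfb5, a subunit of the general transcription and repair factor TFIIH, had 7.26 and 8.19 CPM in testis and 0.448 and 1.02 CPM in body (log2 3.11, SE 0.43, edgeR adjusted p = 2.81e-06). Rad1, part of a DNA damage checkpoint clamp, shares its locus with Sws1 and had 3.02 and 2.67 CPM in testis. In body it had 0 and 0.580 CPM (log2 2.68, SE 0.62, edgeR adjusted p = 7.10e-04), which is 0 and 4 counts. Both loci were higher in each testis library than in each body library. Without body replicate 2 the log2 fold change of the Tfb5 locus was 4.09. That of Rad1 was then 7.27, a fitted value against a body library at 0 and no measure of its size. Polr3K, an RNA polymerase III subunit that shares a locus with Tcs1, was not called, at 3.11 and 4.35 CPM in testis and 2.24 and 2.76 CPM in body.

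The mitochondrial genes Tim10 and ND-MNLL differed in opposite directions. Tim10, a chaperone for proteins bound for the mitochondrial inner membrane, had 54.9 and 58.7 CPM in testis and 9.86 and 13.2 CPM in body (log2 2.23, SE 0.19, edgeR adjusted p = 7.78e-09). ND-MNLL, a subunit of respiratory complex I, had 18.6 and 19.7 CPM in testis and 96.3 and 91.9 CPM in body (log2 -2.30, SE 0.16, edgeR adjusted p = 2.77e-10). The testis values of Tim10 were all above, and those of ND-MNLL all below, the body values. The locus of anox, an acyl-CoA-binding protein, and SLIRP1, a mitochondrial RNA-binding protein, was lower in testis, at 16.5 and 21.9 CPM against 37.6 and 35.1 CPM (log2 -0.93, edgeR adjusted p = 2.28e-04).

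Pepck1 and Fatp1, of sugar and lipid metabolism, were higher in body. Pepck1, the phosphoenolpyruvate carboxykinase that starts gluconeogenesis, on arm 2R, had 31.5 and 24.4 CPM in testis and 1296 and 1560 CPM in body (log2 -5.67, SE 0.26, edgeR adjusted p = 1.88e-12). Fatp1, a fatty acid transport protein (2L:10510672-10517218), had 28.9 and 26.2 CPM in testis and 302 and 289 CPM in body (log2 -3.41, SE 0.17, edgeR adjusted p = 5.78e-12). The groups were well apart in both, and set 1 testis was low too, at 41.8 and 33.2 CPM for Pepck1 and 42.6 and 60.1 CPM for Fatp1. The locus of CG12016 and Dpm2, a subunit of dolichol-phosphate-mannose synthase, was also higher in body, at 70.3 and 46.5 CPM against 8.64 and 9.19 CPM (log2 -2.67, edgeR adjusted p = 3.01e-09).

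The loci of the enzyme genes Mvk, Ppcdc and PIG-M, each with a further reading frame, were called higher in testis, none of them in every alternative. The locus of Mvk, mevalonate kinase of the isoprenoid pathway, and CG33672 had 24.0 and 25.6 CPM in testis and 13.9 and 9.57 CPM in body (log2 1.17, edgeR adjusted p = 8.64e-05). With set 1 testis its direction turned (log2 -0.47, edgeR adjusted p = 0.263). Ppcdc, an enzyme of coenzyme A synthesis, had 5.79 and 5.68 CPM in testis and 1.34 and 4.06 CPM in body (log2 0.80, edgeR adjusted p = 0.0493). PIG-M, a mannosyltransferase of GPI anchors, had 8.12 and 9.69 CPM in testis and 4.93 and 6.09 CPM in body (log2 0.61, edgeR adjusted p = 0.0471). These last calls are the nearest to the threshold. Ppcdc lost its call without testis replicate 1 (edgeR adjusted p = 0.101), testis replicate 2 (0.0541) or body replicate 1 (0.218), and without body replicate 2 its log2 fold change was 2.13. PIG-M lost its call without testis replicate 2 (edgeR adjusted p = 0.161), body replicate 1 (0.153) or body replicate 2 (0.0984). Mocs2A and Mocs2B, which share a locus and form molybdopterin synthase, and the GPI anchor gene PIG-P, which shares one with Tcs6, were not called.

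LanA and alpha-Spec were higher in body. LanA, the laminin alpha chain of basement membranes, had 33.0 and 30.4 CPM in testis and 171 and 119 CPM in body (log2 -2.17, SE 0.18, edgeR adjusted p = 3.46e-09). The spectrin gene alpha-Spec, for a membrane skeleton protein, had 334 and 289 CPM in testis and 735 and 762 CPM in body (log2 -1.26, SE 0.20, edgeR adjusted p = 1.20e-05). Neither gene's groups overlapped, and set 1 testis was on the testis side, at 52.0 and 60.1 CPM for LanA and 364 and 365 CPM for alpha-Spec.

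Of the chromatin genes, kis and His4r were called and HDAC3 and SuUR were not. The chromatin remodeller kis had 76.1 and 83.6 CPM in testis and 110.2 and 121 CPM in body (log2 -0.54, SE 0.15, edgeR adjusted p = 2.69e-03). The histone H4 gene His4r had 291 and 356 CPM in testis and 533 and 452 CPM in body (log2 -0.60, SE 0.19, edgeR adjusted p = 8.40e-03). Both were lower in each testis library, but under library size scaling neither was called (log2 -0.18 and -0.22), and His4r also lost its call without testis replicate 1 (edgeR adjusted p = 0.129). Its counts are uncertain, because histone H4 is encoded by many near-identical copies. The deacetylase gene HDAC3 and the replication suppressor SuUR were not called, at log2 -0.18 and 0.31.

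The GATOR2 complex, which couples amino acid supply to TORC1 signalling, was represented by 3 members. Neither mio (17.0 and 18.4 CPM in testis, 13.9 and 14.9 CPM in body) nor Wdr59 (13.3 and 14.7 CPM, 12.5 and 13.6 CPM) was called. Wdr24 had 4.41 and 2.34 CPM in testis and 7.62 and 9.72 CPM in body (log2 -1.32, SE 0.32, edgeR adjusted p = 9.61e-04). Its groups did not overlap. Without testis replicate 1 the log2 fold change was -1.92. Without body replicate 2 it was not called (edgeR adjusted p = 0.110), and the same held with set 1 testis (edgeR adjusted p = 0.143).

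Genes that act on other proteins included both directions. Uba1, the ubiquitin-activating enzyme, had 435 and 413 CPM in testis and 311 and 307 CPM in body (log2 0.46, SE 0.18, edgeR adjusted p = 0.0272). That call was lost under upper-quartile scaling (edgeR adjusted p = 0.134) and at a mean of at least 50 counts (0.136). It was also lost with set 1 testis (log2 0.24, edgeR adjusted p = 0.278) and with both sets (log2 0.20, edgeR adjusted p = 0.271). Nor did the call hold without testis replicate 1 (log2 0.43) or without testis replicate 2 (log2 0.52). The N-terminal acetyltransferase gene vnc had 46.1 and 44.6 CPM in testis and 16.1 and 12.2 CPM in body (log2 1.75, SE 0.20, edgeR adjusted p = 2.25e-07). The kinase gene Dyrk3 was lower in testis, at 3.54 and 3.18 CPM against 18.8 and 15.2 CPM (log2 -2.27, SE 0.26, edgeR adjusted p = 2.52e-07), and set 1 testis lay between, at 12.1 and 9.49 CPM. The lmgA and lmgB locus, of the anaphase-promoting complex, was not called (log2 0.53, edgeR adjusted p = 0.146), and nor was CG7950 with Rpp14a, a subunit of RNase P (log2 0.44, edgeR adjusted p = 0.0595).

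Among the remaining called loci, those for which no role is stated here, Gint3 was the clearest on the testis side, with 145 and 125 CPM in testis and 30.5 and 38.6 CPM in body (log2 1.94). CG7071, which shares its locus with Muted, and CG9288 followed at log2 1.19 and 1.41, and CG9288 was not called with set 1 testis (edgeR adjusted p = 0.136). Each had both testis values above both body values. On the body side CG32573 had 0.778 and 0.334 CPM in testis and 47.5 and 40.3 CPM in body (log2 -6.07, SE 0.30, edgeR adjusted p = 4.22e-12), the largest fold change among the 43 loci. Without testis replicate 1 it was -6.90. CG17325 had 0.259 and 0.167 CPM in testis and 14.8 and 10.01 CPM in body, and CG10570 had 9.85 and 9.53 against 85.6 and 87.6 CPM. The other body-higher loci were CG6191, CG8026, CG5116, fend and CG16974, with log2 fold changes from -2.33 to -0.56. Not all of these calls held in the alternatives. The call of fend was lost under library size scaling (edgeR adjusted p = 0.0891) and in the DESeq2 Wald test (adjusted p = 0.0620), and that of CG16974 likewise (0.328 and 0.0530). Both were also lost with uncollapsed transcripts (edgeR adjusted p = 0.0557 and 0.132), and CG5116 was not called with set 1 testis (edgeR adjusted p = 0.0919).

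**Figure D3:**
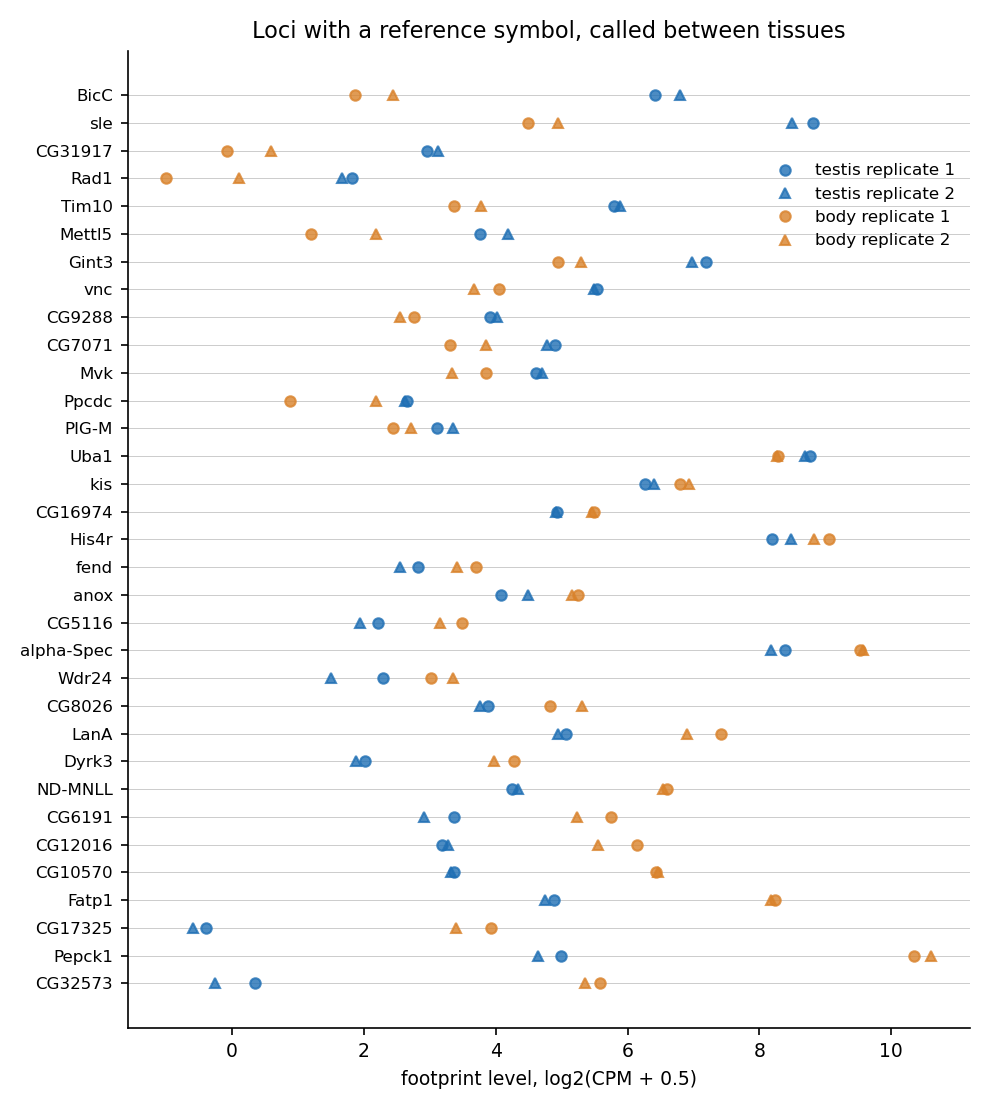
Footprint level, log2(CPM + 0.5), in each of the 4 libraries (points, blue for testis and orange for body) of the 33 loci with a reference symbol that were called, ordered by fold change and labelled by the first symbol of the locus. Testis points lie right of body points for the 14 upper loci and left of them for the 19 lower loci, with BicC and sle at one end and Pepck1 and CG32573 at the other.

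Short loci leaned to testis and long ones to body. Each transcript comes with a number in a deposited column, here called its length number, whose unit is not stated. Among the 781 loci with a length number up to 100, 52.5% were called higher in testis and 35.5% higher in body. Among the 322 loci above 2000, 22.4% were higher in testis and 57.8% in body. In between the shares crossed, from 43.0% and 38.1% at 300 to 400 to 37.1% and 46.1% at 400 to 500. The median length number was 350 for testis-higher loci (quartiles 193 and 602) and 463 for body-higher loci (258 and 749), against 416 over all loci tested. For loci at least 32-fold higher in testis it was 169.5, and in body 298. Length and level are tied in count data, since a short locus collects fewer counts. With set 1 testis in place of set 2, loci up to 200 were 42.4% higher in testis and 37.7% in body, against 52.0% and 35.0% with set 2. Weighted by footprints, the mean length number was 512 and 501 in testis and 579 and 605 in body, but set 1 testis, at 580 and 567, reached the body values.

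Loci left with a single transcript were more often higher in testis, and loci that joined many were more often higher in body. The joining used the counts of 12 WT libraries, the 4 compared here among them. The number joined is therefore no annotation and may itself vary with level and tissue profile. Of the 6462 single-transcript loci, 46.6% were higher in testis and 36.4% in body. Of the 592 loci with more than 5 joined transcripts, 23.0% were higher in testis and 61.0% in body. The pattern held within length classes: up to 200, the share higher in testis was 57.2% for single transcripts and 43.0% for loci of more than 3, and above 1000 it was 38.5% and 20.7%. The direction had no steady relation to level. Of the 1378 loci with a mean log2 CPM up to 2, 25.04% were higher in testis and 48.3% in body. Of the 2311 loci at 6 to 8 the shares were 52.0% and 39.2%, and of the 110 loci above 10 they were 20.9% and 71.8%. Levels here are not divided by length.

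**Figure D4:**
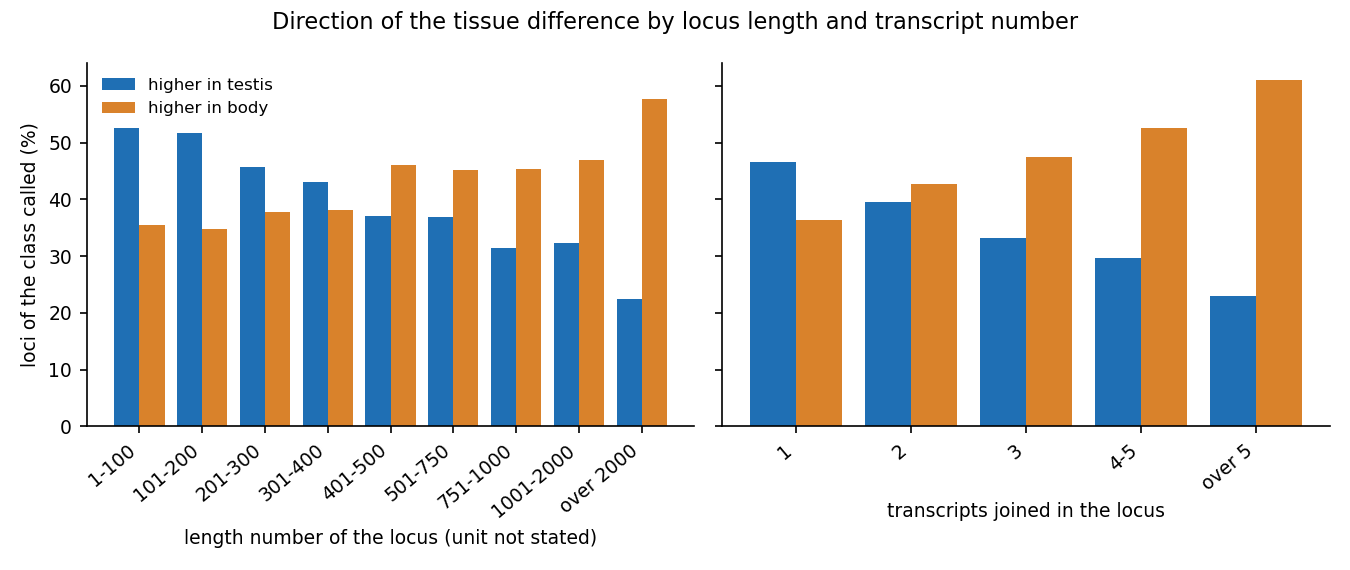
Percentage of loci called higher in testis (blue) and higher in body (orange) by the length number of the locus (left, unit not stated) and by the number of transcripts joined in it (right). The blue bars fall from 52.5% to 22.4% with length and from 46.6% to 23.0% with transcript number, whereas the orange bars rise to 57.8% and 61.0%.

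Among the loci that could be placed on a chromosome arm, a smaller share of those on X than on the autosomal arms was higher in testis. The 43 paired transcripts stand in the list in order of their position within 6 chromosome blocks, so loci listed between 2 paired transcripts of an arm were placed on that arm. This placed 9046 of the 13017 loci and is an inference from list order. On X, 37.0% of 1248 loci were higher in testis and 45.0% in body. On the autosomal arms together, 43.6% of 7798 loci were higher in testis and 38.9% in body. The median log2 fold change was -0.21 on X and 0.14 on the autosomal arms. Among autosomal arms the share higher in testis was 47.3% on 2L, 43.6% on 3L, 42.0% on 2R and 42.0% on 3R. The 3971 loci not placed had shares of 36.4% higher in testis and 46.1% in body, below and above those of X, so the contrast rests on which loci could be placed. X was also lower within each length class, by least above 1000, at 33.3% against 34.2%. It was lower in each of the 14 alternatives run for it. Loci are not replicates, so no p-value is given.

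Loci next to each other in the list tended to differ in the same direction. Of 9107 pairs of adjacent loci that were both called, 62.5% had the same direction. The share was 56.1% for loci 2 places apart, 54.2% at 3, 52.7% at 5 and 51.0% at 10, and 49.7% at 1000. Of the loci at least 32-fold higher in testis, 14.0% were followed by another, against 3.45% at 1000 places. For body the shares were 24.5% and 6.93%. Neighbours in the list can be isoforms that were not joined or genes that overlap, and how much these add was not tested.

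**Figure D5:**
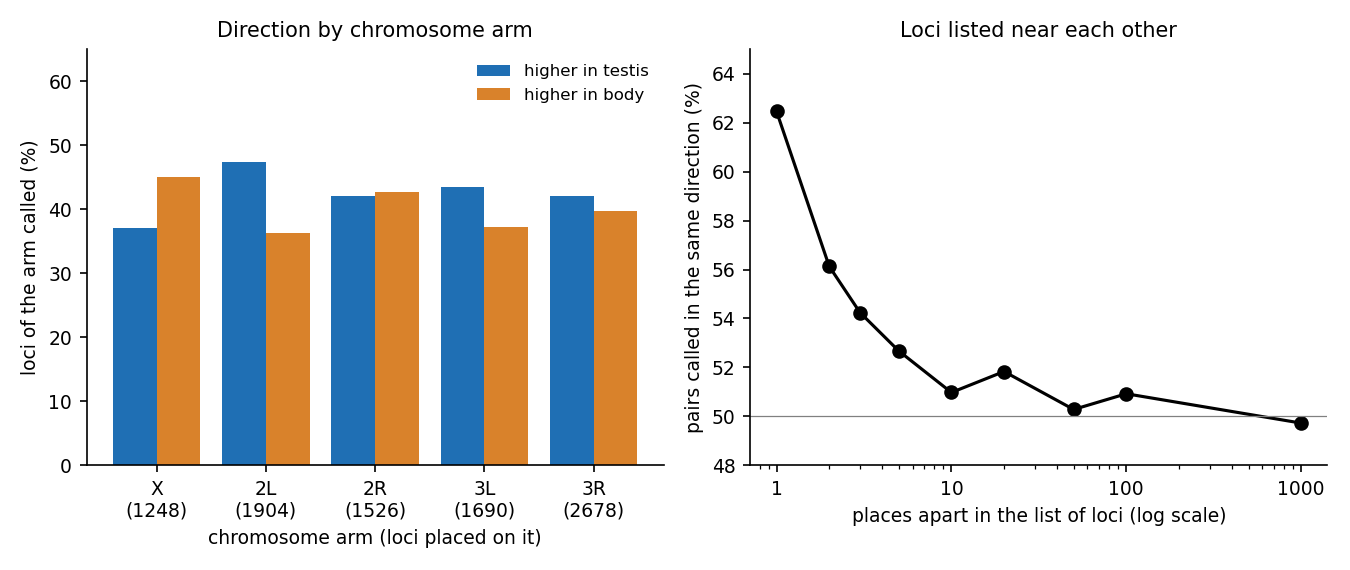
Left, percentage of the loci placed on each chromosome arm that were called higher in testis (blue) or in body (orange), with the number of loci under each arm. Right, percentage of pairs of called loci that had the same direction, by their distance in the list on a log axis, on a y axis that starts at 48%, with a grey line at 50%. X has the lowest blue bar (37.0%), and the curve falls from 62.5% for adjacent loci to 51.0% at 10 places.

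RNA-seq libraries labelled as set 2 testis and body often differed from the footprints in the direction of single loci. Whether these libraries hold the material their labels name was not tested. The set 2 testis RNA-seq libraries held 149346 and 132505 counts and those of body 47154 and 39043, so only 2180 loci could be tested. Of these 1902 (87.2%) were called, 952 (43.7%) higher in testis and 950 (43.6%) in body. At this depth a locus could pass the filter on the counts of a single tissue, so the share called depends on the filter. At a mean of at least 50 counts 104 of 257 loci were called, and without a filter 1627 of 12706. Of 1436 loci called in both assays, 807 (56.2%) had the same direction and 629 the opposite one. Across the 1958 loci tested in both, which are not independent, the log2 fold changes had Pearson's r = 0.20 and Spearman's rho = 0.17. Of the loci at least 32-fold higher in testis by footprints, 58 were tested in RNA-seq, where 19 were higher in testis and 35 in body. Of those at least 32-fold higher in body, 127 were tested, and 90 were higher in body and 29 in testis. When set 1 testis RNA-seq was set against body instead, 11903 loci were tested. Of these, 5096 were called higher in testis and 1648 in body, 6744 in all. The set 1 libraries held 8584207 and 9769624 counts, so loci could pass the filter on testis counts alone. The excess of testis calls is therefore not comparable with the even split above.

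In the summed counts of the strongly tissue-biased loci, set 2 testis RNA-seq was nearer to body RNA-seq than to set 1 testis RNA-seq. Most of the 2180 loci tested were still called between the first pair, a share that depends on the filter. The 1944 loci of the second peak held 40.7% and 40.4% of set 1 testis RNA-seq counts. They held 13.3% and 13.2% in set 2 testis RNA-seq and 14.1% and 14.4% in body RNA-seq, a difference of about 1 percentage point between the labelled tissues. Loci at least 32-fold higher in body by footprints held 0.386% and 0.492% of set 1 testis RNA-seq, but 5.76% and 5.86% of set 2 testis RNA-seq and 7.91% and 7.33% of body RNA-seq. By rank across loci, set 2 testis footprints followed set 1 testis RNA-seq (rho = 0.933) more closely than set 2 testis RNA-seq (0.423), and body footprints and body RNA-seq had rho = 0.287. These correlations share depth and locus length. The tissue difference in footprints is therefore given without division by RNA level.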

How the data were processed

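Per the labels, footprints and RNA-seq were sequenced from WT testis and body. The deposited values are whole-number counts per FlyBase transcript, made by the authors. The submitters' processing notes name CASAVA 1.8, STAR 2.7.0a and dm6. The counting tool, its use of strand and its treatment of multiply mapped reads are not given in the sources used here, so overlapping, antisense and near-identical genes are uncertain. A deposited column holds 1 number per transcript. It was used only to describe loci, and 66.9% of its values are not multiples of 3.

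Transcripts within 50 lines of each other whose CPM profiles over 12 WT libraries lay within a Bray-Curtis distance of 0.1 were joined into loci, each represented by its transcript with most counts. Of 28024 adjacent pairs 47.5% lay within that distance, against 5 of 25543 pairs 1000 lines apart.

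Footprints of WT testis set 2 and WT body (2 libraries each) were fitted with edgeR 4.0.16 in R 4.3.3 (quasi-likelihood F-test, TMM, filterByExpr with minimum count 10, Benjamini-Hochberg adjustment over all loci tested), and RNA-seq was fitted likewise. The procedure was run on simulated data in which few loci differed between the groups, unlike the real data, where most did. That run therefore does not test the scaling when differences are this broad. Alternatives were other scalings, the DESeq2 1.42.0 Wald test, other filters, a replicate block, leaving out each library, thinning, uncollapsed transcripts and set 1 testis.

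Loci without a symbol were named by the largest fold change, 2 in each direction, among called loci whose groups do not overlap, with 10 counts or more per library and a mean log2 CPM of 3 or more, a rule that 6630 loci met. Loci with symbols were all given. The members and lists were chosen with earlier results of these data known, and the symbols, chromosome arms and second peak were described after the values were seen.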

Additional observations from a re-analysis of the deposited data

How the results depend on the processing

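Counts of footprint calls stayed within 1.5 times their value under the other scalings, tests and filters, thinning and both uses of set 1 testis, with the exception given next for differences of at least 32-fold. The DESeq2 Wald test called 9687 loci, and set 1 in place of set 2 called 8987. The joining of transcripts set the totals. Uncollapsed transcripts gave 22234 calls (10965 higher in testis, 11269 in body), 17449 at least 2-fold and 2335 at least 32-fold apart. They also lowered the testis and body shares of the leading 10 (4.62% and 3.27%), 100 (15.0% and 20.4%) and 1000 (41.9% and 56.6%), since each locus is then split. Set 1 testis gave 855 calls at least 32-fold apart, and 1.803% of testis and 21.6% of body footprints in them. RNA-seq calls, 1902 in the reported fit, were 104 at a mean of at least 50 counts, where 257 loci were tested, and 921 after thinning. They were 4004 uncollapsed and 6744 with set 1 (5096 testis, 1648 body), where 11903 loci were tested. The median length number of body-higher loci exceeded that of testis-higher loci by 113, by 92 under library size alone, 72 with set 1 and 101 with both sets. For the changes with set 1 and in length number the cause was not tested. Leaving out 1 library at a time gave 9504 to 10610 footprint calls (4958 to 5274 testis, 4546 to 5437 body), 8150 to 8832 at least 2-fold, 1319 to 1715 at least 32-fold, 1369 to 1725 RNA-seq calls and a length difference of 98.5 to 123. A tissue with 1 library left was assumed to vary like the other.

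Same-numbered replicates showed no shared deviation: the correlation of their deviations was -0.03 over 8921 loci for footprints and 0.01 over 229 for RNA-seq. These loci are not independent, so whether samples were handled in pairs is not settled by this. With a replicate block, 10537 footprint loci (5203 testis, 5334 body) and 1803 RNA-seq loci were called.

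Of the 37 called loci named in the text, 25 kept call and direction in every alternative that gave a value and 12 did not. Rad1 gave none at a mean of at least 50 counts, thinned or with set 1, and CG31917 and CG17325 none at that mean. Of 679 recomputed values 612 kept direction and call, 38 lost a call, 8 gained one and 21 changed sign, and the cause was not tested. With set 1 testis, log2 fold changes were -0.34 for mio, -0.15 for Wdr59, -0.47 for Mvk, -0.56 for PIG-M, 0.36 for Mocs2 and -0.75 for CG7950. With both sets they were -0.11 for mio, -0.065 for lmgB, -0.16 for Wdr59, -0.048 for Tcs1, -0.0094 for SuUR and -0.15 for CG7950. Wdr59 was at -0.11 under upper-quartile scaling and -0.11 at a mean of at least 50 counts. HDAC3 was at 0.16 under library size alone, 0.36 thinned and 0.11 uncollapsed. Leaving out 1 library gave -0.00172 to 0.20 for Wdr59, -0.31 to 0.49 for CG30100, -0.39 to 0.39 for HDAC3 and -0.69 to 0.14 for Mocs2. Depth limits the RNA-seq comparison and loci of a few CPM most.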
